A study of Rattus norvegicus with 12 samples.

Results

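The genes described here are the calcium pumps and release channels of the endoplasmic reticulum (ER) together with the store-operated entry and calcium extrusion genes that work beside them: Atp2a2, Atp2a3, Itpr1, Itpr2, Itpr3, Ryr2, Stim1, Orai1 and Slc8a1. They were chosen by symbol, 9 of the 34034 gene symbols in the count table, by a rule that used no measured value, although earlier results of these libraries were known when they were chosen. All 9 passed the filter on low counts that left 14324 genes. The RNA came from INS-1E, an established rat insulinoma line of wild-type genotype that secretes insulin and serves as a model of the β-cell. Bulk RNA-seq was performed in 4 groups of 3 biological replicates. Untreated cells received no cytokine. IL-1βlow cells were preconditioned with IL-1β at 10 pg/ml for 72 h, with fresh cytokine every 24 h. CYT cells were challenged for 16 h with IL-1β at 100 pg/ml and IFN-γ at 5 ng/ml. IL-1βlow + CYT cells received the preconditioning, then new medium and the same challenge.

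In the β-cell, SERCA pumps use ATP to move calcium from the cytosol into the ER, where it is held at a concentration far above that of the cytosol. Inositol trisphosphate (IP3) receptors and ryanodine receptors let it out again, and the ER protein STIM1 senses an emptied store and opens ORAI1 channels in the plasma membrane to refill it. Pro-inflammatory cytokines are known to lower ER calcium in β-cells, in part through nitric oxide, which is made by the inducible synthase encoded by Nos2. The comparisons ask how the transcripts of this machinery changed with the challenge, with the preconditioning alone, and with the challenge after preconditioning.

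Total counts ran from 15812640 to 20246806 per library, and the ribosomal RNA gene Rn45s took 6.89% to 11.1% of them. Mitochondrially encoded genes took 3.30% to 4.10% in untreated, 2.24% to 4.25% in IL-1βlow, 1.69% to 2.67% in CYT and 2.81% to 3.92% in IL-1βlow + CYT libraries, so CYT lay below untreated without overlap. Levels are TMM-normalised CPM (counts scaled to library size), given by replicate 1, 2 and 3 and as mean ± SD (n = 3). They depend on transcript length, so they were compared between groups and not between genes. Genes are said to have risen or fallen where edgeR's quasi-likelihood test gave an adjusted p under 0.01. All 10 β-cell markers examined were above 1 CPM in every group, and their summed level was 43819 to 50645 CPM in untreated libraries, 14403 to 15299 CPM in CYT and 21010 to 26547 CPM in IL-1βlow + CYT libraries. Most of that sum is Ins1, Chga and Ins2, and the markers did not move alike. Among examples chosen after their values were seen, in IL-1βlow + CYT against untreated cells the means were 11822 against 23994 CPM for Ins1, but 263 against 266 CPM for Pdx1 and 596 against 434 CPM for Slc2a2. The exocrine markers Prss1, Cpa1 and Amy2a3 and the leukocyte marker Ptprc were listed at 0, the 4 leukocyte markers summed to at most 4.52 CPM and the 5 stromal and endothelial markers to at most 1.14 CPM. Of 6 markers of other islet endocrine cells 2 were above 1 CPM, and the 6 summed to 187 to 368 CPM in untreated, 25.4 to 64.9 CPM in CYT and 74.5 to 152 CPM in IL-1βlow + CYT libraries. In bulk RNA, fewer cells of a kind and less RNA per cell cannot be told apart. The mitochondrial share and the β-cell and other endocrine markers moved with the changes described next, and their part in them was not tested. Levels of Itpr1, Itpr2, Itpr3, Ryr2, Stim1 and Orai1 are uncertain in so far as these genes overlap a non-coding RNA gene or pseudogene in the RefSeq annotation of GRCr8 and the strand setting of the counting is not given in the sources used here.

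After the CYT challenge, 5 of the 9 genes changed against untreated cells. Atp2a3 and Itpr3 rose, and Atp2a2, Itpr1 and Itpr2 fell. Among all genes tested the background was 49.7% called, 25.2% higher and 24.5% lower, and 5 of 9 is near it. Only Atp2a3 also passed the study's fold minimum, a log2 fold change above 1, against 21.6% of all genes. The groups did not overlap for 6 of the 9, against 69.3% of all genes, the sixth being Orai1. The median log2 fold change was -0.10 over the 9 genes and -0.04 over all genes. All 5 calls held when each library was left out in turn, in each of the other settings tried, and without the 4 libraries numbered 2.

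Atp2a2 encodes SERCA2, the pump present in nearly all cells. It read 632, 702 and 659 CPM in untreated libraries and 563, 644 and 618 CPM in IL-1βlow libraries. In CYT libraries it read 426, 439 and 403 CPM, and in IL-1βlow + CYT libraries 516, 569 and 511 CPM. Every CYT library was lower than every other library, and the IL-1βlow + CYT libraries lay between CYT and untreated without overlap with either. Atp2a2 therefore went from 665 ± 35.2 CPM in untreated to 423 ± 18.1 CPM in CYT cells, a 1.57-fold fall (log2 fold change -0.65, SE 0.08, adjusted p = 8.5e-06). It was 1.26-fold higher in IL-1βlow + CYT cells, at 532 ± 32.0 CPM, than in CYT cells (log2 fold change 0.33, SE 0.08, adjusted p = 0.0036). Against untreated cells that group gave -0.32, with an adjusted p of 0.01004 that lay just over the threshold, and it passed without untreated replicate 1 (-0.38, adjusted p = 0.0091).

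Atp2a3 encodes SERCA3, a pump of lower calcium affinity that β-cells and blood cells carry beside SERCA2. It read 107, 65.5 and 144 CPM in untreated and 205, 109.7 and 179 CPM in IL-1βlow libraries. In CYT libraries it read 440.0, 210.2 and 409 CPM, and in IL-1βlow + CYT libraries 484, 272 and 433 CPM. Both challenged groups were above untreated in every library, and they overlapped with each other. The rise from 105 ± 39.1 to 353 ± 125 CPM with CYT was 3.35-fold (log2 fold change 1.74, SE 0.32, adjusted p = 3.3e-04). In IL-1βlow + CYT cells it stood at 396 ± 110.4 CPM, which was 3.76-fold above untreated (log2 fold change 1.91, SE 0.33, adjusted p = 5.6e-04). The difference between the challenged groups was 0.17 on the log2 scale, with a 95% interval from -0.50 to 0.84 and an adjusted p of 0.68, so preconditioned and non-preconditioned cells could not be separated on this gene.

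**Figure D1:**
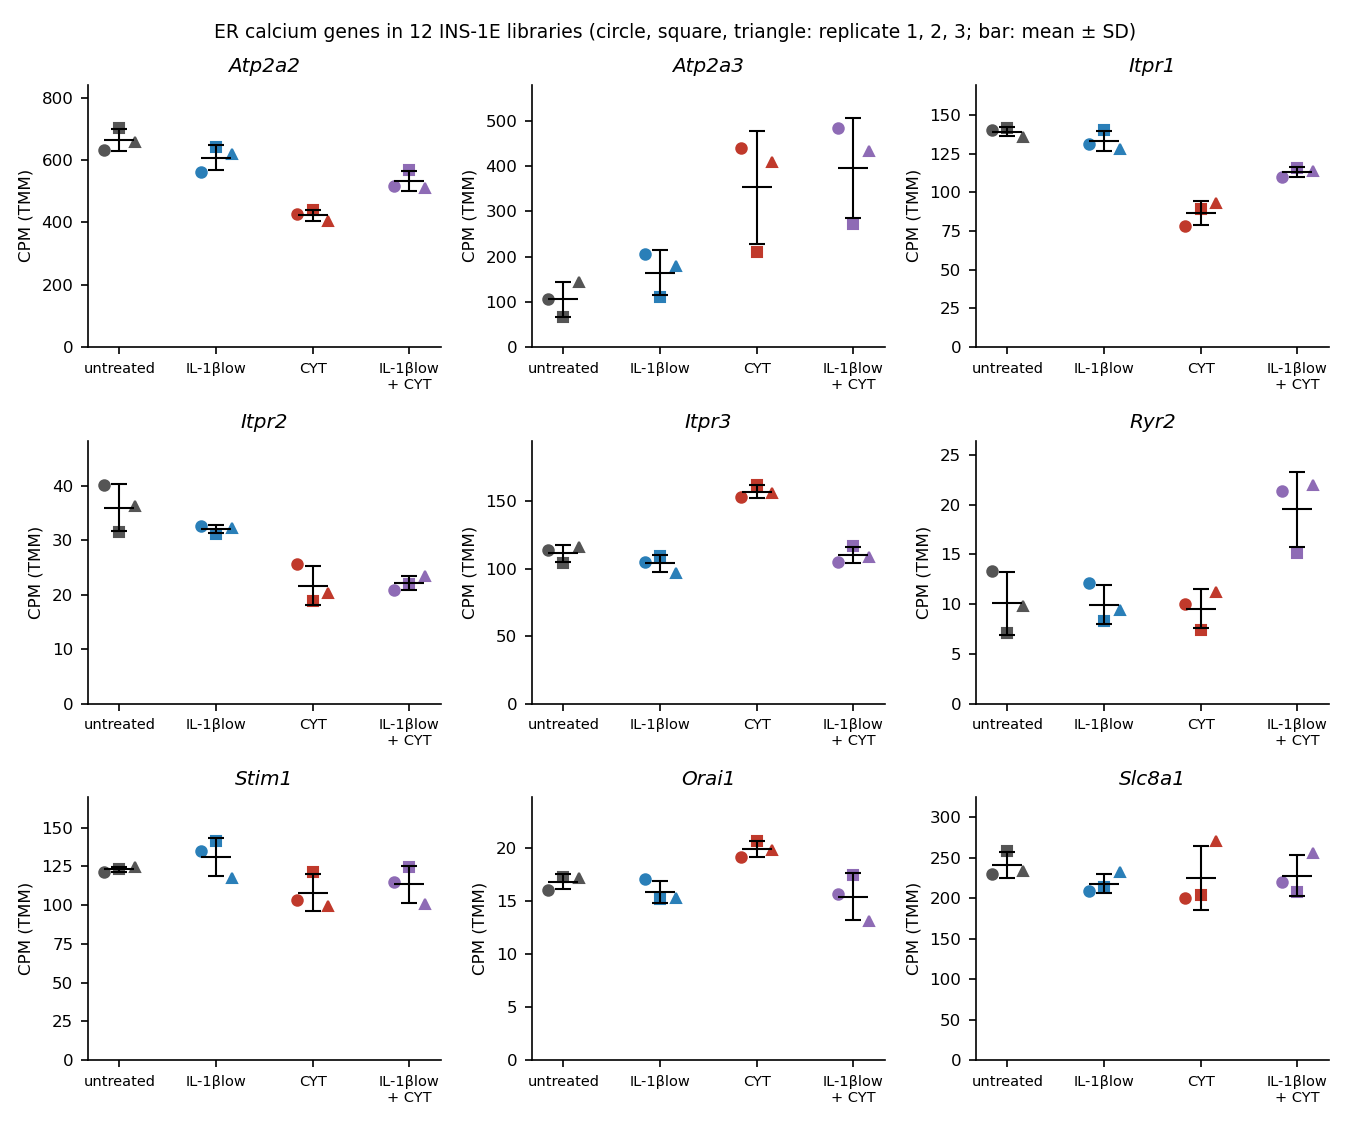
TMM-normalised CPM of the 9 genes (vertical axes, linear from 0) in the 12 libraries by group (horizontal axes). Circles, squares and triangles are replicates 1, 2 and 3, and bars are the mean ± SD. Atp2a2 and Itpr1 are lowest in CYT and between CYT and untreated in IL-1βlow + CYT libraries, Itpr3 is highest in CYT, and Ryr2 is highest in IL-1βlow + CYT libraries at 15.2 to 22.0 CPM.

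The pair of pumps thus moved in opposite directions with CYT. Within a library, the counts of Atp2a3 stood to those of Atp2a2 as 0.160 ± 0.0628 in untreated and 0.275 ± 0.0975 in IL-1βlow cells. This ratio was 0.842 ± 0.315 in CYT and 0.754 ± 0.243 in IL-1βlow + CYT cells. Its lowest value in a challenged library, 0.478, was above its highest value in an unchallenged one, 0.364. The ratio does not depend on the scaling of libraries. It was described without a test, since the smallest p that an exact permutation test can give with 3 libraries a group is 0.1.

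The IP3 receptor genes did not move as a family. Itpr1 and Itpr2 fell with CYT whereas Itpr3 rose, and in IL-1βlow + CYT cells Itpr1 and Itpr3 were nearer to the untreated level, whereas Itpr2 could not be separated from CYT cells. IP3 receptors assemble as tetramers that may hold more than one of the 3 gene products, which differ in their sensitivity to IP3 and calcium. Itpr1 read 140.4, 141 and 136 CPM in untreated, 131, 140.2 and 128 CPM in IL-1βlow, 78.1, 89.0 and 92.9 CPM in CYT, and 109.7, 116 and 114 CPM in IL-1βlow + CYT libraries. All CYT libraries were the lowest, and the libraries of the preconditioned challenge lay in a gap between them and the rest. The fall with CYT was 1.61-fold (log2 fold change -0.68, SE 0.08, adjusted p = 4.0e-06). The level in IL-1βlow + CYT cells was 1.31-fold higher than in CYT cells (log2 fold change 0.38, SE 0.08, adjusted p = 0.0011).

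Itpr2 read 40.2, 31.5 and 36.3 CPM in untreated, 32.7, 31.2 and 32.2 CPM in IL-1βlow, 25.7, 18.9 and 20.3 CPM in CYT, and 20.9, 22.0 and 23.5 CPM in IL-1βlow + CYT libraries. The challenged libraries were lower than all others with or without preconditioning. Itpr2 fell 1.66-fold with CYT (log2 fold change -0.73, SE 0.12, adjusted p = 1.5e-04) and was 1.63-fold lower in IL-1βlow + CYT than in untreated cells (log2 fold change -0.70, SE 0.12, adjusted p = 7.9e-04). The challenged groups differed by 0.03 on the log2 scale (95% interval -0.24 to 0.30, adjusted p = 0.85).

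Itpr3 read 114, 104 and 116 CPM in untreated, 105, 109.7 and 97.0 CPM in IL-1βlow, 153, 162 and 156 CPM in CYT, and 105, 117 and 109 CPM in IL-1βlow + CYT libraries. The 3 CYT libraries stood above the other 9, which overlapped across their groups. Itpr3 rose 1.41-fold with CYT (log2 fold change 0.50, SE 0.08, adjusted p = 7.3e-05). It was 1.43-fold lower in IL-1βlow + CYT than in CYT cells (log2 fold change -0.51, SE 0.08, adjusted p = 8.7e-05), and differed from untreated by -0.02 on the log2 scale (95% interval -0.18 to 0.15, adjusted p = 0.90).

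These opposite movements changed the make-up of the IP3 receptor transcripts. Of the counts of the 3 genes together, Itpr3 held 38.9% ± 1.29 in untreated, 38.6% ± 0.785 in IL-1βlow, 59.2% ± 1.10 in CYT and 44.9% ± 0.851 in IL-1βlow + CYT cells. Itpr1 held 48.6% ± 2.09, 49.4% ± 0.635, 32.6% ± 2.05 and 46.1% ± 0.514 in the same order. The Itpr3 share of every CYT library was above that of every other library. Itpr2 held 12.5% ± 1.13 in untreated and 8.18% ± 1.61 in CYT cells. Shares of counts were not divided by transcript length, so the differences between groups can be read and the order of the genes cannot be read as an order of molecules.

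**Figure D2:**
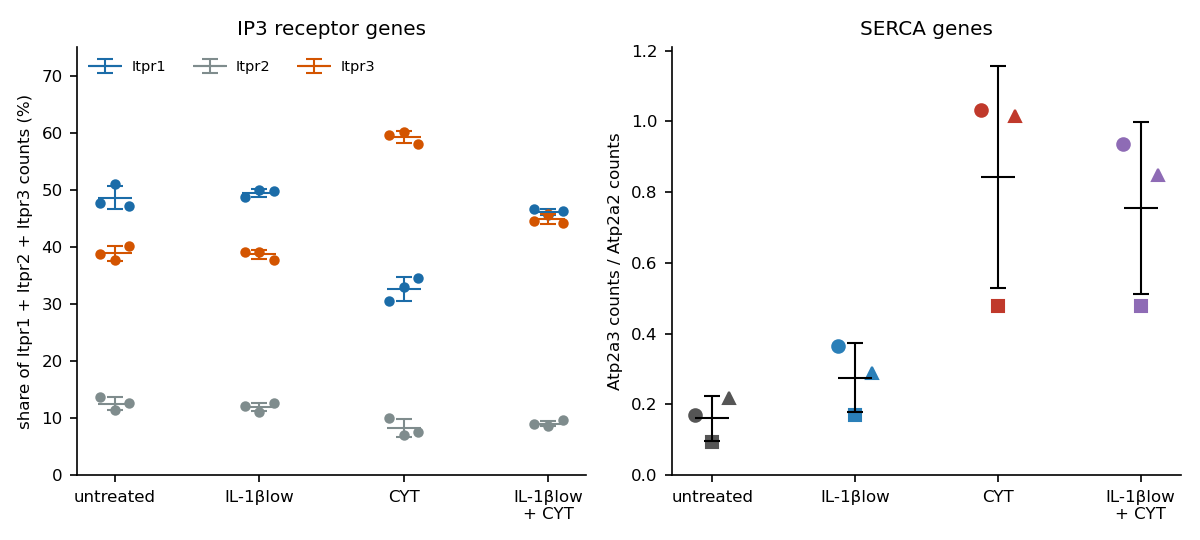
Left, share of Itpr1, Itpr2 and Itpr3 in their summed counts (%). Right, counts of Atp2a3 divided by counts of Atp2a2. Points are libraries by group, and bars are the mean ± SD. The Itpr3 share is 59.2% in CYT cells against 38.9% in untreated, and the Atp2a3 to Atp2a2 ratio is at least 0.478 in every challenged library.

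The sequences before the transcription starts are shown for 4 of these genes, Atp2a2 and Itpr1 because they moved together, Itpr3 because it moved the opposite way, and Atp2a3 because it had the largest change of the 9 with CYT. They are the 250 bases upstream of each RefSeq start in the assembly GRCr8, and all 9 genes matched an entry. Positions are chr12:39733269-39733518 for Atp2a2, chr10:58080402-58080651 for Atp2a3, chr4:142743190-142743439 for Itpr1 and chr20:5138562-5138811 for Itpr3, each on the plus strand. Capitals mark GC boxes (GGGCGG on either strand) and, in Atp2a2, the longest run, which is CCAAT followed after 9 bases by CCAC.
Atp2a2: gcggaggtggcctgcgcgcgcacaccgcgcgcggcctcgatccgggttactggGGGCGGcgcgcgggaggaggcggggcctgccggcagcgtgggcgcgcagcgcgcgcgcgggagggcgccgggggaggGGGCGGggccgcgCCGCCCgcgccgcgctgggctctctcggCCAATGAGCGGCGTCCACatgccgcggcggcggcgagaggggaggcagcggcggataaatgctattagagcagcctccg
Atp2a3: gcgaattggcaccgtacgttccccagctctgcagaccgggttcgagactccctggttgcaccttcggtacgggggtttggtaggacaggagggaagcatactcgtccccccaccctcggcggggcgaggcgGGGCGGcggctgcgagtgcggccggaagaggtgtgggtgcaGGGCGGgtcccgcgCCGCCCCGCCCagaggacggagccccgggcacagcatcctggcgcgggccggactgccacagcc
Itpr1: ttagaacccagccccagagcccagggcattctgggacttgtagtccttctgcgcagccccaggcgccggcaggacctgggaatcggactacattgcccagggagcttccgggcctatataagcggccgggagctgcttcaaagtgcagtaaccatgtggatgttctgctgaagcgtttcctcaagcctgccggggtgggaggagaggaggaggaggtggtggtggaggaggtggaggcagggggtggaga
Itpr3: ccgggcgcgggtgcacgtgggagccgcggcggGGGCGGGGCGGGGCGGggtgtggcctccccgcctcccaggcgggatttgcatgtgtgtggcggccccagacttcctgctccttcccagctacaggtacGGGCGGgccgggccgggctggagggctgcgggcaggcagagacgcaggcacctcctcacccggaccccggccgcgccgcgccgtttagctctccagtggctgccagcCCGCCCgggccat

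Across 33469 windows of this length, 30.5% held a GC box, as did those of 7 of the 9 genes, with 3 boxes in Atp2a2, 4 in Atp2a3 and 5 in Itpr3. Boxes that overlap run together in the capitals. Itpr1 and Slc8a1 held none. The ER stress element, CCAAT followed after 9 bases by CCACG, was in 0.0657% of windows and in none of the 9. Without its last letter it was in 0.290% of windows and, among the 9, in Atp2a2. The cAMP response element TGACGTCA (1.59% of windows), the AP-1 site TGACTCA (4.05%), the ATF4-CHOP composite TTGCATCA (0.693%), the interferon-γ activated site TTCNNNGAA (7.67%), the κB letters GGGACTTTC (0.272%) and TATAAA (12.9%) were in none of the 9 windows. The GC box, TATAAA and the shortened stress element were added after the sequences had been seen. The G and C content was 80.0% for Atp2a2, 77.2% for Itpr3, 72.4% for Atp2a3, 62.0% for Itpr1 and 35.2% for Slc8a1, against a median of 51.2% over all windows. A match of letters is a description, and these windows bear no measurement of binding.

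Ryr2, which encodes the ryanodine receptor that opens in response to cytosolic calcium, followed none of these courses. It read 13.3, 7.04 and 9.85 CPM in untreated, 12.1, 8.34 and 9.38 CPM in IL-1βlow, and 10.0, 7.34 and 11.2 CPM in CYT libraries. In IL-1βlow + CYT libraries it read 21.4, 15.2 and 22.0 CPM. These 3 libraries were the highest of the 12, and the other groups overlapped. Ryr2 was 2.04-fold higher in IL-1βlow + CYT than in CYT cells (log2 fold change 1.03, SE 0.23, adjusted p = 0.0019) and 1.93-fold higher than in untreated cells (log2 fold change 0.95, SE 0.23, adjusted p = 0.0077). CYT against untreated gave -0.08 on the log2 scale (95% interval -0.59 to 0.42, adjusted p = 0.78). Counts behind these levels were 119 to 370 per library. Without replicate 1 of IL-1βlow + CYT or without replicate 2 of CYT, the first of these differences was 0.93 or 0.88 with an adjusted p of 0.011 or 0.012. The second lost its call without IL-1βlow + CYT replicate 1 or 3 or untreated replicate 2 or 3, with adjusted p-values from 0.016 to 0.049, and without the 4 libraries numbered 2 (0.89, adjusted p = 0.016). It also lost it with only the 2 groups compared (0.96, adjusted p = 0.015) and with at least 10 counts in every library (0.93, adjusted p = 0.011).

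The store-operated entry pair showed smaller differences, none of which passed the threshold. Stim1 read 121, 123 and 124 CPM in untreated, 135, 141 and 117 CPM in IL-1βlow, 104, 122 and 99.2 CPM in CYT, and 115, 125 and 101 CPM in IL-1βlow + CYT libraries, so all groups overlapped. Its CYT difference from untreated was -0.19 on the log2 scale (95% interval -0.40 to 0.03, adjusted p = 0.12). Orai1 read 16.0, 17.3 and 17.1 CPM in untreated, 17.1, 15.2 and 15.2 CPM in IL-1βlow, 19.2, 20.6 and 19.8 CPM in CYT, and 15.7, 17.5 and 13.1 CPM in IL-1βlow + CYT libraries. The 3 CYT libraries were the highest, but the differences of 0.24 from untreated (adjusted p = 0.090) and -0.37 for IL-1βlow + CYT against CYT (adjusted p = 0.019) missed the threshold. The second passed without replicate 2 of IL-1βlow + CYT (-0.47, adjusted p = 0.0092). The ratio of Stim1 to Orai1 counts was 7.32 ± 0.224 in untreated, 8.30 ± 0.859 in IL-1βlow, 5.43 ± 0.444 in CYT and 7.39 ± 0.281 in IL-1βlow + CYT cells, and its CYT libraries, at 5.00 to 5.89, lay below all others.

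Slc8a1 encodes the plasma membrane exchanger NCX1, which trades cytosolic calcium for sodium. It read 230.4, 259 and 234 CPM in untreated, 209, 213 and 232 CPM in IL-1βlow, 200.3, 205 and 271 CPM in CYT, and 220.3, 208 and 256 CPM in IL-1βlow + CYT libraries. All 4 groups overlapped. CYT against untreated gave -0.10 on the log2 scale, with a 95% interval from -0.34 to 0.15 (adjusted p = 0.47), and IL-1βlow + CYT against CYT gave 0.02, from -0.23 to 0.26 (adjusted p = 0.91).

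**Figure D3:**
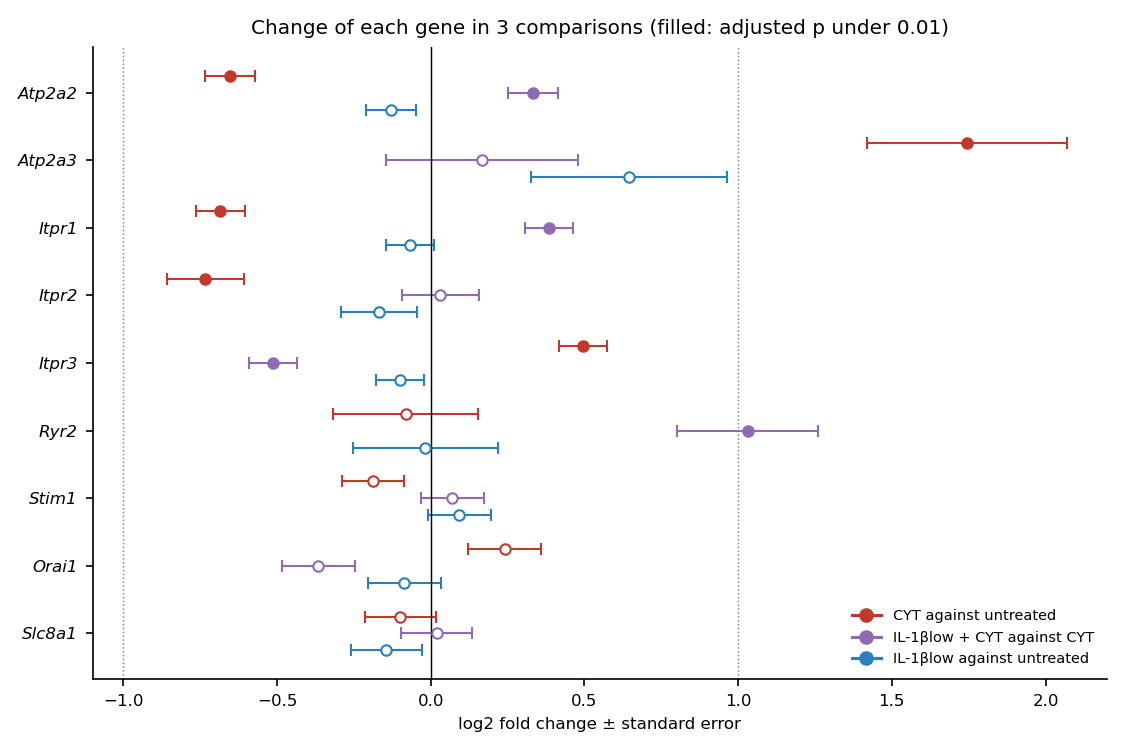
Log2 fold change ± standard error (horizontal axis) of the 9 genes (vertical axis) in CYT against untreated, IL-1βlow + CYT against CYT, and IL-1βlow against untreated cells. Filled points have an adjusted p under 0.01 and dotted lines mark -1 and 1. In the first comparison 5 points are filled, in the second 4 and in the third 0, and Atp2a3 at 1.74 and Ryr2 at 1.03 lie past 1.

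Preconditioning alone gave no called change among the 9 genes in the reported fit, and 1, Atp2a3, in 2 other settings. In IL-1βlow against untreated cells, 0 of 9 passed edgeR's quasi-likelihood test, 0 had an unadjusted p under 0.05, and DESeq2 and exactTest also called 0, against a background of 0.503% of all genes, or 0.433% past the lower fold minimum of 0.6 used here. The groups overlapped for all 9, where 23.7% of all genes did not overlap. The largest difference was that of Atp2a3, 0.64 on the log2 scale (SE 0.32, 95% interval -0.04 to 1.33, adjusted p = 0.38). It was higher in IL-1βlow than in untreated libraries of each replicate number. The replicate block, a fit of all 12 libraries with a term for that number, called it (0.66, SE 0.10, adjusted p = 0.0017). However, numbers were not taken to pair these groups. It was also called with no filter on low counts (0.66, SE 0.11, adjusted p = 6.4e-07). Both fits gave it a smaller SE than the 0.32 of the reported fit. For the other 8, differences lay between -0.17 (Itpr2) and 0.09 (Stim1).

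With the challenge in preconditioned cells, 4 of the 9 genes differed from CYT cells, Atp2a2, Itpr1 and Ryr2 being higher and Itpr3 lower, against a background of 36.3% of all genes (17.1% higher and 19.2% lower). Ryr2 was the 1 gene past the fold minimum, against 12.5%. The groups did not overlap for 5 of the 9, Orai1 being the fifth, against 54.4% of all genes. The median log2 fold change was 0.07 over the 9 genes and 0.02 over all genes. Itpr1 and Itpr3 kept their calls whichever single library was left out. Atp2a2 lost its call without CYT replicate 1 or 3 or without IL-1βlow + CYT replicate 1 or 2, with adjusted p-values from 0.012 to 0.028 and log2 fold changes of 0.27 to 0.32. Without the 4 libraries numbered 2, a choice made after seeing the data, the calls of Itpr3 and Ryr2 remained, while Atp2a2 gave 0.27 (adjusted p = 0.059) and Itpr1 gave 0.35 (adjusted p = 0.040).

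Against untreated cells, 3 of the 9 genes differed in IL-1βlow + CYT cells, with Atp2a3 and Ryr2 higher and Itpr2 lower, against a background of 13.8% of all genes (8.24% higher and 5.53% lower). Atp2a3 alone passed the fold minimum, against 5.99%. The groups did not overlap for 5, Atp2a2 and Itpr1 included, against 37.3% of all genes. Itpr1 gave -0.30 on the log2 scale (adjusted p = 0.012). Both comparisons of the preconditioned challenge use the same IL-1βlow + CYT libraries, and both comparisons with untreated cells use the same untreated libraries, so they are not independent of each other.

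Within preconditioned cells, IL-1βlow + CYT against IL-1βlow called 1 of the 9 genes, against a background of 8.2% of all genes (5.57% higher and 2.63% lower), and 0 past the fold minimum, against 3.88%. That gene was Itpr2, 1.45-fold lower (log2 fold change -0.53, SE 0.12, adjusted p = 0.0094), and its adjusted p rose to between 0.010 and 0.036 when any 1 of the 6 libraries was left out. Atp2a3 was higher by 1.27 (SE 0.32, adjusted p = 0.015) and Ryr2 by 0.97 (SE 0.23, adjusted p = 0.0104), both without overlap and both just short of the threshold. Without IL-1βlow + CYT replicate 2 they passed, at 1.48 (adjusted p = 0.0084) and 1.12 (adjusted p = 0.0068). None of these fits used the replicate number, although numbers were taken to pair these groups, so the pairing was left out of them. With the replicate block, fitted to all 12 libraries, Atp2a3 gave 1.28 (SE 0.10, adjusted p = 2.5e-07) and Ryr2 0.97 (SE 0.14, adjusted p = 8.8e-05), which brought the count to 3 of 9. That block also spans the untreated libraries, which were not taken as paired with the others. The groups did not overlap for 4 of the 9, Itpr1 among them, against 27.1% of all genes.

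The interaction tests whether the response to CYT differed between preconditioned and other cells. It was called for 3 of the 9 genes, against a background of 22.6% of all genes (10.1% higher and 12.5% lower), and for 0 past the fold minimum, against 10.7%. The log2 response to CYT was -0.65 without and -0.19 with preconditioning for Atp2a2, -0.68 and -0.23 for Itpr1, and 0.50 and 0.08 for Itpr3. The differences between these responses were 0.46 (SE 0.11, adjusted p = 0.0064), 0.45 (SE 0.11, adjusted p = 0.0060) and -0.41 (SE 0.11, adjusted p = 0.0093). All 3 lay close to the threshold, and when each of the 12 libraries was left out in turn, 9, 10 and 9 of the 12 fits lost the call, with adjusted p-values up to 0.029, 0.027 and 0.024 and log2 differences of at least 0.35 in size. With no filter on low counts these 3 calls were lost as well (SE 0.154, 0.155 and 0.155, adjusted p = 0.036, 0.045 and 0.015). For Ryr2 the difference was 1.05 (SE 0.33, adjusted p = 0.022). It was called with the replicate block (1.04, SE 0.20, adjusted p = 6.2e-04), by DESeq2 (1.02, adjusted p = 0.0091) and with no filter (0.99, SE 0.24, adjusted p = 3.2e-04). For Atp2a3 the difference was -0.48 (SE 0.45, 95% interval -1.43 to 0.48, adjusted p = 0.42). It was called with no filter, where its SE was smaller (-0.53, SE 0.15, adjusted p = 0.0042).

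Ordered by level, Atp2a2 and Itpr1 ran CYT, IL-1βlow + CYT, IL-1βlow, untreated, and of the neighbours only CYT and IL-1βlow + CYT differed past the threshold. Atp2a3 ran untreated, IL-1βlow, CYT, IL-1βlow + CYT, and its one step past the threshold was from IL-1βlow to CYT (1.10 on the log2 scale, adjusted p = 0.0084). Itpr2 ran CYT, IL-1βlow + CYT, IL-1βlow, untreated, with its step between IL-1βlow + CYT and IL-1βlow. For Itpr3 the step was from untreated to CYT, and for Ryr2 from untreated to IL-1βlow + CYT. No neighbours differed past the threshold for Stim1, Orai1 or Slc8a1.

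The replicate number moved with 3 of the genes, and how many of all genes show such an order was not counted. Atp2a3 and Ryr2 were lowest in replicate 2 in all 4 groups, and Atp2a2 was highest in replicate 2 in all 4. Atp2a3 in replicate 2 was 65.5, 109.7, 210.2 and 272 CPM from untreated to IL-1βlow + CYT, and it rose with CYT among libraries of each number. The labels do not say what libraries of one number shared, and the part of this pattern in the results was not tested beyond the fits with the block and without the libraries numbered 2.

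**Figure D4:**
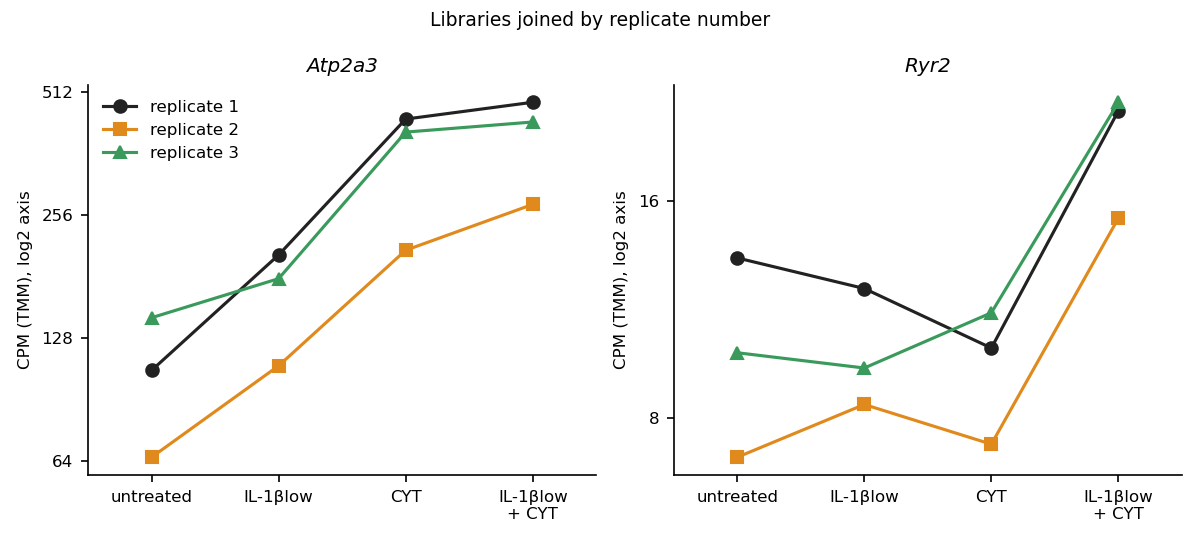
CPM of Atp2a3 and Ryr2 (vertical axes, log2 scale) in the 4 groups (horizontal axes), with lines joining libraries of the same replicate number. Replicate 2 is the lowest in every group for both genes, at 65.5 to 272 CPM for Atp2a3 and 7.04 to 15.2 CPM for Ryr2, and Atp2a3 is higher in CYT than in untreated libraries for each number.

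Nos2, the gene of the inducible nitric oxide synthase, had 0 to 2 counts per library in untreated and 0 to 1 in IL-1βlow cells. It read 412, 605 and 688 CPM in CYT and 33.0, 55.7 and 57.8 CPM in IL-1βlow + CYT libraries. All CYT libraries were far above those of the preconditioned challenge, by 11.6-fold on the means fitted (log2 fold change -3.54, SE 0.21, adjusted p = 2.8e-08). Atp2a2, Itpr1 and Itpr3 were nearer to untreated in IL-1βlow + CYT than in CYT cells, whereas for Atp2a3 and Itpr2 the challenged groups could not be separated. Nitric oxide and calcium were not measured in these libraries, and a link between Nos2 and the calcium genes was not tested.

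Close relatives of the 9 genes were also read. Orai2, a paralog of Orai1, rose from 37.0 ± 2.04 CPM in untreated to 85.3 ± 14.1 CPM in CYT cells (log2 fold change 1.21, SE 0.12, adjusted p = 7.7e-07) and was back at 37.9 ± 4.49 CPM in IL-1βlow + CYT cells (-1.17 against CYT, SE 0.12, adjusted p = 2.4e-06). Ryr1 took the same course, with 8.55 ± 0.432, 13.2 ± 0.877 and 8.37 ± 0.814 CPM, and passed in both comparisons (0.62, adjusted p = 8.1e-04, and -0.65, adjusted p = 8.5e-04). Ryr3 rose with CYT from 1.97 ± 0.378 to 6.22 ± 1.41 CPM (1.66, SE 0.25, adjusted p = 5.2e-05) and stood at 8.37 ± 2.39 CPM in IL-1βlow + CYT cells, where it differed from CYT by 0.42 on the log2 scale (adjusted p = 0.12).

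Stim2 was 27.0 ± 1.34 CPM in untreated and 15.8 ± 3.31 CPM in IL-1βlow + CYT cells (-0.77, SE 0.14, adjusted p = 9.4e-04), with CYT between at 19.7 ± 1.87 CPM (-0.45 against untreated, adjusted p = 0.011). Without the libraries numbered 2 the first difference missed the threshold (-0.69, adjusted p = 0.020). The second missed it in the reported fit. It passed by DESeq2 (adjusted p = 0.0076), by exactTest (0.0054), with only the groups compared (0.0070) and with the replicate block (0.0011). Among exchangers, Slc8a2 rose with CYT (0.69, SE 0.17, adjusted p = 0.0032) and Slc8a3 fell (-0.75, SE 0.21, adjusted p = 0.0069). The muscle SERCA gene Atp2a1, with at most 31 counts per library, fell as well (-1.86, SE 0.49, adjusted p = 0.0043). The calls of Slc8a2, Slc8a3 and Atp2a1 were each lost in at least 2 of 6 fits that left out 1 library: Slc8a2 without untreated replicate 1 or CYT replicate 2 (adjusted p up to 0.019), Slc8a3 without any one of 5 libraries, CYT replicate 1 being the exception (up to 0.043), and Atp2a1 without untreated replicate 1 or 3 or CYT replicate 2 or 3 (up to 0.025). Orai3 gave -0.31 with CYT (adjusted p = 0.041).

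Of 112 other calcium-handling genes in 10 lists, 110 were in the table and 94 passed the filter. With CYT, 15 rose, 42 fell and 37 were not called, which is 60.6% called against 49.7% of all genes, with a median log2 fold change of -0.39 against -0.04. Among ER calcium buffers and chaperones 1 of 11 rose and 6 fell, among ER leak and tubular junction proteins 1 of 11 rose and 6 fell, and among plasma membrane and Golgi export genes 1 of 11 rose and 7 fell. Ryanodine receptor paralogs and partners were mixed, with 4 of 12 higher and 5 lower, as were the IP3 receptor regulators (2 of 10 higher, 3 lower) and the IP3-producing phospholipases (2 of 8 higher, 4 lower). Other store-operated entry genes had 2 of 11 higher and 4 lower, the list of the SERCA paralog Atp2a1 and SERCA regulators 0 of 4 higher and 3 lower, Atp2a1 itself among them, and the cyclic ADP-ribose and NAADP pathway 1 of 4 higher and 2 lower. Mitochondrial calcium genes had 1 of 12 higher and 2 lower. These lists were drawn up with earlier results of the same libraries known.

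The largest rises of these lists with CYT were those of Ryr3, already given, and of Itprip, whose product binds IP3 receptors, from 8.94 ± 1.00 to 27.8 ± 4.29 CPM (1.63, SE 0.15, adjusted p = 3.0e-07). The largest falls were those of the cation channel gene Trpc4, from 16.9 ± 2.60 to 3.56 ± 0.430 CPM (-2.24, SE 0.16, adjusted p = 2.3e-08), and of the sodium-calcium-potassium exchanger gene Slc24a2, from 69.5 ± 13.7 to 18.3 ± 2.85 CPM (-1.93, SE 0.15, adjusted p = 8.0e-08).

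In IL-1βlow + CYT against CYT cells, 20 of the 94 genes were higher, 10 lower and 64 not called, which is 31.9% called against 36.3% of all genes, with a median of 0.08 against 0.02. Ryanodine receptor paralogs and partners gave 6 of 12 higher and 2 lower, Ryr1 among the lower, and the phospholipases 0 of 8 by edgeR's quasi-likelihood test. Itprip returned to 9.24 ± 0.834 CPM (-1.59, SE 0.15, adjusted p = 1.0e-06). Trpc4 rose to 10.2 ± 0.743 CPM (1.51, SE 0.16, adjusted p = 3.5e-06), and Asph, whose products include the ER protein junctin, was higher by 0.98 (SE 0.14, adjusted p = 7.1e-05). Slc24a4 was lower by -2.24 on the log2 scale (SE 0.38, adjusted p = 2.2e-04) at levels of 1.35 ± 0.149 and 0.276 ± 0.0849 CPM, with 3 to 26 counts per library. In IL-1βlow against untreated cells, edgeR's quasi-likelihood test called 0 of the 94, DESeq2 0 and exactTest 1, while 15 had an unadjusted p under 0.05.

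**Figure D5:**
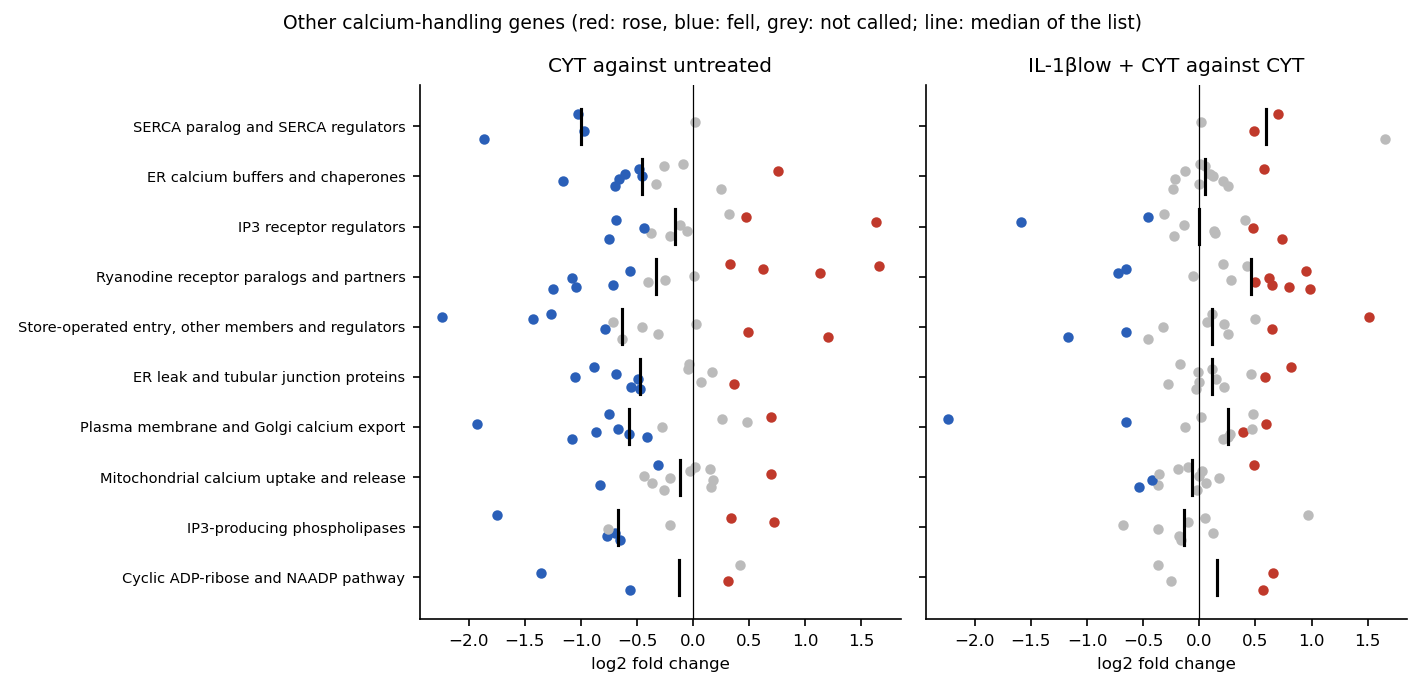
Log2 fold change (horizontal axes) of 94 other calcium-handling genes by list (vertical axis) in CYT against untreated and in IL-1βlow + CYT against CYT cells. Red points rose, blue points fell, grey points were not called, and the black line is the median of a list. With CYT 42 points are blue and 15 red, and in the second comparison 10 are blue and 20 red.

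Across the 12 libraries and 11497 genes with a mean log2 CPM above 2, the genes whose log2 CPM ran most nearly in parallel were Slc16a14 (Pearson r = 0.986) and Rem2 (0.984) for Atp2a2. They were Serping1 (0.962) and Pip4k2a (0.956) for Atp2a3, Amz1 (0.977) and Tnni3k (0.973) for Itpr1, and Zfp652 (0.981) and Pou3f2 (0.971) for Itpr2. For Itpr3 they were Unc5b (0.986) and Ndufaf6 (0.980), and for Ryr2 Grhl1 (0.945) and Clic2 (0.914). For Stim1, Orai1 and Slc8a1 the closest were Agpat3 (0.949), Polr1c (0.925) and Trip12 (0.927). These are descriptions over 12 libraries that share the 4 groups, so no p is given.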

How the data were processed

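INS-1E cells were profiled by bulk RNA-seq in 12 libraries. According to the methods and the submitters' notes, the authors made TruSeq libraries from polyA RNA, used FastQC for quality control and rfastp for trimming, and mapped the reads to the build mRatBN7.2 by Rsubread, whose featureCounts gave the gene counts. Deposited were raw counts, whole numbers per gene symbol and library, without normalization. In the RefSeq annotation of GRCr8, 6 of the 9 genes overlap a non-coding RNA gene or pseudogene and 0 overlap a protein-coding gene. No genome of mRatBN7.2 was used here.

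A gene was kept where at least 2 libraries exceeded 1 CPM (14324 genes), and TMM factors (0.968 to 1.04) were applied. One edgeR 4.0.16 quasi-likelihood fit in R 4.3.3 held the 4 groups and all 12 libraries, with 8 residual degrees of freedom and a common biological coefficient of variation of 0.123. P-values were adjusted by Benjamini-Hochberg over all genes tested. The standard error was the log2 fold change over the root of its F statistic. The call rule was an adjusted p under 0.01. The study's thresholds add an absolute log2 fold change above 0.6 (IL-1βlow against untreated) or 1. Scripts were tested on simulated counts. Reads carry no molecular identifiers, so depth bounds counting error only.

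The 9 genes, the calcium lists, the cell markers and the tests were chosen with earlier results of these data known. Named from the lists were the 2 largest rises and 2 largest falls among called genes in CYT against untreated, IL-1βlow + CYT against CYT and IL-1βlow against untreated, and the paralogs of the 9 genes. The genes nearest in pattern were those with the highest Pearson r, with Nos2 added as the source of nitric oxide.

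Replicate numbers come from the labels, which number biological replicates from 1 to 3 and do not say whether one number was grown together. Deviations from the group means, compared between libraries of one number, correlated at 0.116, 0.475 and 0.453 for IL-1βlow + CYT with CYT and 0.179, 0.469 and 0.520 with IL-1βlow, and the numbers were taken to pair libraries there. Between untreated and the other groups at least 1 pair of each was under 0.1, and the numbers were not taken to pair. The reported fit had no term for the number, so it tested the comparisons taken as paired without their pairing. The replicate block added that term to the fit of all 12 libraries, untreated ones included. Alternatives were RLE size factors, no filter, at least 10 counts in every library, DESeq2 1.42.0, exactTest, an adjusted p under 0.05, the replicate block, fits of only the groups compared, and each library left out. Leaving out the 4 libraries numbered 2 was added after seeing the data. Counts of same-group libraries differed by more than sampling noise, and none was counted as a duplicate.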

Additional observations from a re-analysis of the deposited data

Results flagged for a closer look

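The difference between the responses to CYT with and without IL-1βlow preconditioning passed the interaction test for 7 of the genes named. Those screened were the 9 genes, their paralogs and the genes named from the lists. Among all genes tested the background was 22.6% called. The difference is given here as preconditioned minus not preconditioned on the log2 scale. Among the pumps and release channels it was 0.46 for Atp2a2 (adjusted p = 0.0064), 0.45 for Itpr1 (adjusted p = 0.0060) and -0.41 for Itpr3 (adjusted p = 0.0093). These 3 calls were lost in 9, 10 and 9 of the 12 fits that left out 1 library, and without the libraries numbered 2. Among their relatives and regulators it was -1.22 for Orai2 (adjusted p = 9.9e-05), -1.65 for Itprip (adjusted p = 5.3e-05), 1.46 for Trpc4 (adjusted p = 1.5e-04) and 1.02 for Asph (adjusted p = 0.0014). Without the libraries numbered 2, Trpc4 (1.31, adjusted p = 0.012) and Asph (1.03, adjusted p = 0.012) missed the threshold, while Orai2 and Itprip kept their calls. In each of the 7, the response to CYT was smaller in preconditioned cells. Itprip, Trpc4 and Asph were named for large changes in comparisons that use the same CYT libraries. Such a choice favours this direction. All 7 are listed for passing the interaction, which contains the CYT response itself, so their shared direction is no separate result. For Orai2 the response was 1.21 without and -0.01 with preconditioning, and for Itprip 1.63 and -0.01. For Trpc4 it was -2.24 and -0.78, and for Asph -1.25 and -0.23. Groups of 3 libraries were too small for a test of single outlying samples.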

How the results depend on the processing

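The 792 values of the 9 genes under alternatives kept direction and side of the threshold in 702 cases, lost the call in 62 and gained it in 28. None of the called values reversed, and 35 uncalled values changed sign. The 5 calls of CYT against untreated held in every setting run. Of the 9 genes, the number called moved by over 1.5 times, or its genes changed, as follows. IL-1βlow against untreated (0) gave 1, past the fold minimum too, with no filter and with the replicate block, which was Atp2a3 both times (block 0.66, SE 0.10, adjusted p = 0.0017). Numbers were not taken to pair the groups of that comparison. IL-1βlow + CYT against CYT (4) gave 2 with only the groups compared, where Atp2a2 (adjusted p = 0.018) and Itpr1 (adjusted p = 0.013) missed, 2 without the libraries numbered 2, 3 with no filter, Atp2a2 being lost, and 5 at an adjusted p under 0.05, Orai1 being added. Its 1 gene past the fold minimum, Ryr2, became 0 without those libraries and with no filter. IL-1βlow + CYT against untreated (3) gave 5 at an adjusted p under 0.05, with the block, DESeq2 and exactTest, Atp2a2 and Itpr1 being added, 4 with at least 10 counts, where they were added and Ryr2 was lost, and 2 with only the groups compared or without the libraries numbered 2, Ryr2 being lost. IL-1βlow + CYT against IL-1βlow (1) gave 3 at an adjusted p under 0.05, with no filter, the block, DESeq2 and exactTest, 2 with RLE and 0 with only the groups compared, and 1 past the fold minimum (0) with no filter, the block, DESeq2, exactTest and without the libraries numbered 2. The interaction (3) gave 4 with the block, DESeq2 and an adjusted p under 0.05, Ryr2 being added, 2 with no filter, where Atp2a3 and Ryr2 took the place of the 3, 1 with RLE and 0 without the libraries numbered 2, and 1 past the fold minimum (0) with the block and DESeq2. The cause of these shifts was not tested. The block changed no call in CYT against untreated or IL-1βlow + CYT against CYT.

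When each library was left out in turn, the number called ranged from 5 to 5 for CYT against untreated (past the fold minimum 1 to 1), 0 to 0 for IL-1βlow against untreated (0 to 0), 2 to 4 for IL-1βlow + CYT against CYT (0 to 1), 2 to 4 for IL-1βlow + CYT against untreated (1 to 2), 0 to 2 for IL-1βlow + CYT against IL-1βlow (0 to 2) and 0 to 2 for the interaction (0 to 0). The ratio of Atp2a3 to Atp2a2 ranged from 0.131 to 0.193 in untreated, 0.230 to 0.327 in IL-1βlow, 0.747 to 1.02 in CYT and 0.663 to 0.892 in IL-1βlow + CYT cells. That of Stim1 to Orai1 ranged from 7.20 to 7.42, 7.81 to 8.60, 5.20 to 5.65 and 7.24 to 7.52. Over all genes past the study's thresholds, IL-1βlow against untreated gave 62 in the reported fit, 229 with no filter, 141 with the block, 139 by DESeq2, 137 by exactTest and 6 without the libraries numbered 2. Without those libraries IL-1βlow + CYT against IL-1βlow went from 556 to 367 and the interaction from 1530 to 654.

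With 3 libraries a group, the Stim1 groups overlapped, Orai1 missed the threshold although its CYT libraries did not overlap the untreated ones, and Atp2a1 and Slc24a4 rest on few reads.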
